A study of Mus musculus with 12 samples.

Results

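Tmigd1 and 9 other genes of the intestinal brush border were described across 4 groups of mouse colonic epithelium: Cdhr2, Cdhr5, Ush1c, Anks4b, Myo7b, Vil1, Espn, Myo1a and Ezr. They were taken by symbol, and all 10 had a row among the 46517 genes of the count tables and were among the 12522 genes that passed the filter on low counts. Tmigd1 was chosen by its fall in these samples under dextran sulfate sodium (DSS), so its values in every comparison are given as a description with no test. The others were chosen as proteins of the same structure, with earlier results of these data known. The samples were intestinal epithelial cells (IECs) that EDTA detached from the colon of C57BL/6 mice aged 7 to 9 weeks, about 90% of them typically negative for CD45.2 and positive for EpCAM per the labels. Mice were wild type (WT) or Nfkb2-/- (knockout, KO), Nfkb2 encoding the NF-kB precursor p100 and its product p52, and were left untreated or given DSS, a polysaccharide that injures colonic epithelium, for 48 h. Each of the 4 groups held 3 samples, which the series describes as biological replicates.

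The brush border is the carpet of microvilli on the apical face of enterocytes and colonocytes. Each microvillus has a core of actin filaments that bundling proteins such as villin and espin hold in parallel, and myosin-1a and ezrin tie this core to the membrane around it. At the microvillus tips, the cadherins CDHR2 and CDHR5 bind each other across neighbouring microvilli, and the scaffolds USH1C and ANKS4B with the motor myosin-7b anchor them to the actin core, which packs the microvilli together. TMIGD1 is an adhesion protein of the immunoglobulin superfamily found in the brush border. These structures belong to differentiated surface cells of the colon more than to the crypt base.

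The promoter sequences of 4 of the genes are shown because Tmigd1, Cdhr2 and Espn were the members with the lowest log2 fold changes under DSS in WT, and Anks4b held the only HNF4 word. Each is the 250 bases before a transcription start in RefSeq (GRCm38.p6), on the gene's own strand, with a match to a searched word in capitals.
Tmigd1: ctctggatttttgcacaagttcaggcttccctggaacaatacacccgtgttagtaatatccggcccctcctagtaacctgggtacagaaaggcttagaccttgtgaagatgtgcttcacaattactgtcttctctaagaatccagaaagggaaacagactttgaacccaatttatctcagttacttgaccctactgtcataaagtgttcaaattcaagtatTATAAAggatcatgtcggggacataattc
Cdhr2: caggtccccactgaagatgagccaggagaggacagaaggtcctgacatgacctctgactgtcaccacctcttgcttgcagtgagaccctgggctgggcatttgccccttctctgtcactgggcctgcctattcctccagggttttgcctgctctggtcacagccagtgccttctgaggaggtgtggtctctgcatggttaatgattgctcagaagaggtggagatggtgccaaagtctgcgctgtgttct
Espn: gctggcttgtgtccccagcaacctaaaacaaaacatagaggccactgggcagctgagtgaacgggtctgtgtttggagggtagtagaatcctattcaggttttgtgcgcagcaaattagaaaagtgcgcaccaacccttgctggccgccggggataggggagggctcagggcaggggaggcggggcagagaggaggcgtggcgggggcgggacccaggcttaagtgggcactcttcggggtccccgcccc
Anks4b: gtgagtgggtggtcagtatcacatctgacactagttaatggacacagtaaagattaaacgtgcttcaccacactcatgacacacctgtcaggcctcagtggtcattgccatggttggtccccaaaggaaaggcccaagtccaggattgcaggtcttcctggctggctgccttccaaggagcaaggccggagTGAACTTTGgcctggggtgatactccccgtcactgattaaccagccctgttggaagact
These lie at chr11:76901909-76902158 (plus strand), chr13:54701213-54701462 (plus), chr4:152152390-152152639 (minus) and chr7:120173608-120173857 (plus). The table held promoters for 9 of the 10 genes that could be used here, and 3 words were searched on both strands. The HNF4 word (CAAAGTCCA or CAAAGTTCA) occurs in 0.715% of the 32851 promoters of the table, and Anks4b holds it on the minus strand as TGAACTTTG, 59 bases before the start. The TATA word (TATAAA) occurs in 12.4% of promoters, and Tmigd1 holds it 29 bases before its start. The word of the CDX homeobox factors (TTTATTG or TTTATGG) occurs in 6.51% of promoters and in none of the 4 windows printed. An internal Espn start holds it as CCATAAA on the minus strand, 197 bases upstream. No other match to the 3 words was found in the windows of the 9 genes, and no matches overlapped.

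Total counts per sample ranged from 5595909 to 8117740, and 15738 to 17120 genes had a count. Values are library-scaled counts (CPM) with TMM factors, so a floor of 3 counts is 0.356 to 0.530 CPM. Nfkb2 reads remained in KO libraries, at 14.4 ± 2.90 CPM untreated and 17.5 ± 2.04 CPM under DSS, against 36.9 ± 6.52 and 42.5 ± 3.34 CPM in WT (SD, n = 3). The defining epithelial markers were present in every library, with a summed level of 6 genes between 20467 and 29311 CPM, and none of the 6 was called in any comparison. Among the 8 markers of surface colonocytes, 8 were lower under DSS in WT and 7 in KO, against 3.5% and 2.04% of all genes tested. Their summed level was 11726 to 13074 CPM in WT and 7310.3 to 7965 in KO without treatment, and 3163 to 3385 in WT and 3207 to 3803 in KO with DSS. Car1 weighed most in the untreated sums, at a mean of 7068 CPM in WT and 2552 in KO. Against untreated WT, 5 of the 8 markers were below 0 in untreated KO and 3 above. Of these, Car1 and Ceacam20 were called lower and Car4 higher. In bulk RNA, fewer cells of a type and less RNA per cell cannot be told apart, and the part of surface cell number in the results was not tested. The summed level of 17 leukocyte markers was 22.3 to 44.0 CPM in WT and 102 to 116 in KO without treatment, and 72.9 to 77.6 in WT and 156 to 214 in KO with DSS, and in each library 0 to 6 of the 17 were at 0. The 11 stromal and vascular markers summed to at most 7.43 CPM. The goblet cell markers summed to 15196 to 17539 CPM in WT under DSS, 13803 to 15175 in untreated KO and 26782 to 30721 in KO under DSS. Of the 8, 3 were higher under DSS in KO (Muc2, Fcgbp and Clca1) and 1 lower in WT (Clca1), and against WT 2 were lower in untreated KO and 3 higher in KO under DSS. The shares over all genes were 1.88%, 3.5%, 1.76% and 1.77% in that order. The crypt progenitor markers summed to 218 to 248 CPM in WT under DSS, 424 to 462 in untreated KO and 231 to 261 in KO under DSS, and of the 6, 4 were lower under DSS in KO and 1 in WT. The part of these cell types in the results was not tested. One library stood apart: replicate 3 of untreated WT had a goblet marker sum of 18864 CPM against 27019 and 29987 in the other two, and a crypt progenitor marker sum of 501 against 291 and 301. The library numbers in the labels place all 6 WT libraries before all 6 KO libraries, so library order and genotype cannot be told apart.

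In untreated WT cells the members spanned a wide range of level per kilobase of exon. Cdhr5 stood highest at 449.9 ± 52.6 CPM per kb (SD, n = 3), followed by Ezr at 282 ± 48.6, Vil1 at 251 ± 52.2, Myo1a at 245 ± 21.6 and Cdhr2 at 195 ± 23.4. The samples of Ezr, Vil1 and Myo1a overlapped one another, and those of Cdhr2 overlapped Vil1. Ush1c at 59.5 ± 5.28 and Tmigd1 at 56.3 ± 1.49 CPM per kb also overlapped. Myo7b followed at 26.0 ± 3.35, Anks4b at 14.4 ± 2.23 and Espn at 4.53 ± 0.652 CPM per kb. Exon lengths are the union of all transcripts of a gene, 8272 bases for Espn. Cdhr5 stayed first and Espn last in all 4 groups, and Tmigd1 went from the seventh place in both untreated groups to the ninth in both DSS groups.

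**Figure D1:**
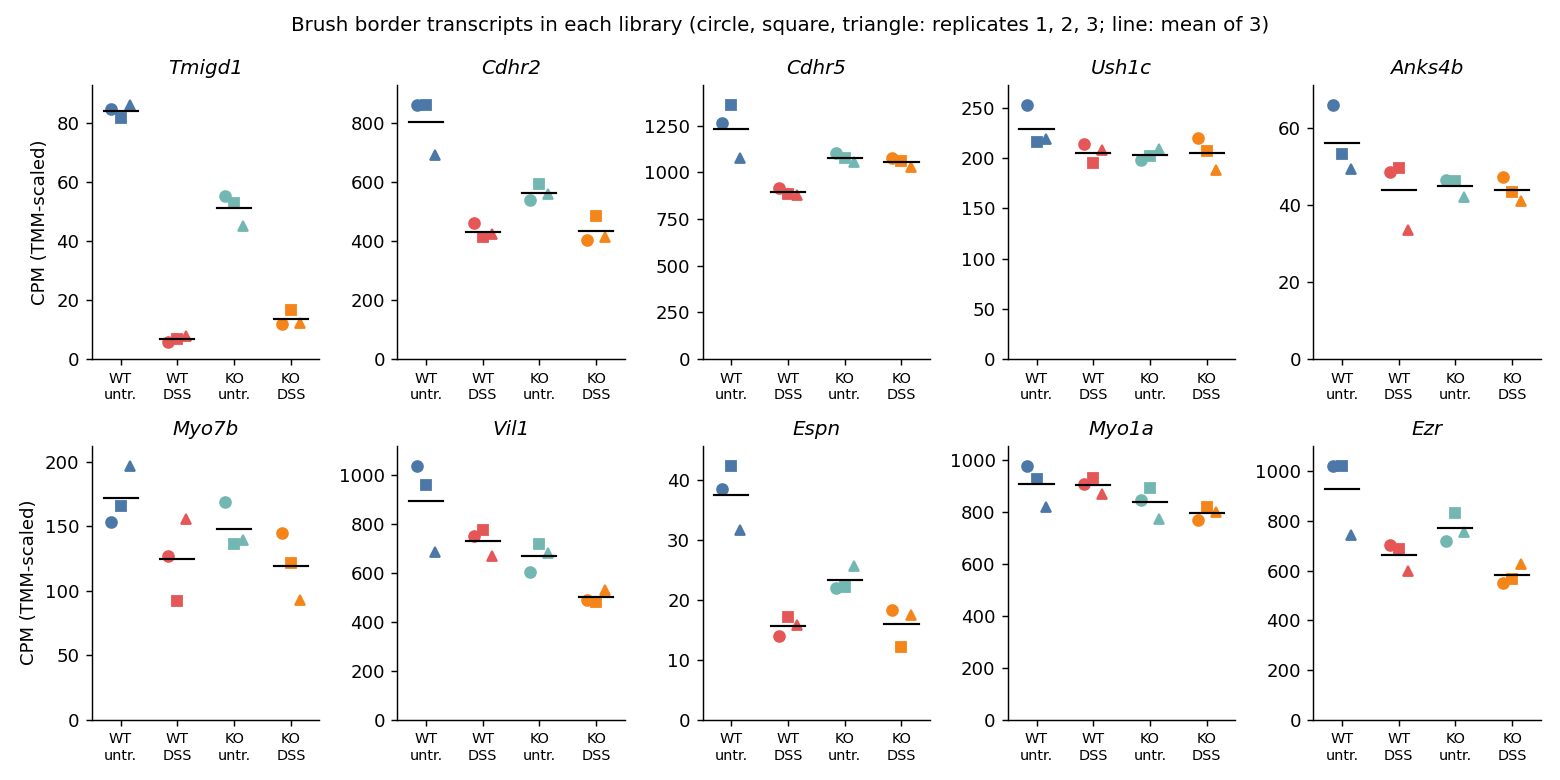
Level of each of the 10 genes in every sample, in TMM-scaled CPM on axes that start at 0, with the mean of the 3 samples of each group as a line. Tmigd1 lies between 81.7 and 86.1 CPM in untreated WT and between 5.77 and 7.66 CPM in WT under DSS, and Myo1a lies between 771 and 978 CPM over all 12 samples.

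Tmigd1 (ENSMUSG00000020839.15, chr11:76902159-76916587, plus strand), the adhesion protein, had the widest range of the members on the log2 scale. In WT it stood at 84.7, 81.7 and 86.1 CPM untreated and at 5.77, 6.80 and 7.66 CPM under DSS. In KO it stood at 55.3, 53.0 and 45.3 CPM untreated and 12.02, 16.6 and 12.2 CPM under DSS. No 2 groups overlapped, and their order was untreated WT, untreated KO, KO under DSS and WT under DSS. The log2 fold change with DSS was -3.64 in WT, 12.5-fold lower, and -1.91 in KO, 3.75-fold lower, a difference of 1.73 on the log2 scale; these values chose the gene and carry no test.

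Between genotypes, untreated KO stood at 60.8% of untreated WT in Tmigd1 level (log2 fold change -0.72, SE 0.16), and KO under DSS at 2.02 times WT under DSS (1.01, SE 0.19). The choice of the gene rested on high untreated and low DSS values of these same samples, so neither difference was tested. The SEs take no account of that choice.

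The 2 cadherins of the intermicrovillar complex fell under DSS in WT. Cdhr2 (ENSMUSG00000034918.8, chr13:54701461-54736662, plus strand) stood at 861, 860.0 and 693 CPM in untreated WT and 461, 413 and 424 CPM in WT under DSS. In KO its levels were 541, 594 and 559 CPM untreated and 402, 484 and 412 CPM under DSS. Every DSS sample lay below every untreated sample of its genotype. The fall in WT was 1.86-fold (log2 fold change -0.90 with an SE of 0.11, adjusted p 8.46e-05 by edgeR). In KO the log2 fold change was -0.38 (SE 0.11, adjusted p by edgeR 0.0606), just short of the threshold, and it passed in 5 alternatives (adjusted p 0.0132 to 0.217 over all), among them the fits without untreated WT replicate 1 (0.047) or 3 (0.0149).

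Cdhr2 was also lower in untreated KO than in untreated WT (log2 fold change -0.51 with an SE of 0.11, adjusted p 0.015 by edgeR), with no overlap between the groups. This call was lost without untreated WT replicate 2 (adjusted p 0.0693) or untreated KO replicate 1 (0.0765) or 3 (0.0712), over a range of 0.000799 to 0.0765. Under DSS the genotypes overlapped, with a difference of 0.0014 on the log2 scale (95% confidence interval -0.23 to 0.23). The untreated WT samples enter both the DSS comparison and the untreated genotype comparison, so the lower values in both rest in part on the same libraries.

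Cdhr5 (ENSMUSG00000025497.13, chr7:141269083-141276786, minus strand), the partner cadherin, stood at 1263, 1359 and 1075 CPM in untreated WT and 915, 881 and 879.8 CPM in WT under DSS. Its KO levels were 1100.4, 1078 and 1056 CPM untreated and 1077, 1058 and 1028 CPM under DSS. The WT groups were apart, while the KO groups overlapped within a narrow band. The fall in WT was 1.38-fold (log2 fold change -0.47 with an SE of 0.09, adjusted p 0.00376 by edgeR), and the log2 fold change in KO was -0.03 (95% confidence interval -0.22 to 0.15). Under DSS all 3 KO samples lay above all 3 WT samples, but the difference did not pass (log2 fold change 0.24 with an SE of 0.09, adjusted p 0.184 by edgeR) except without untreated WT replicate 3 (0.0337, range 0.0337 to 0.388).

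The scaffolds and motor of the complex did not pass the test in any of the 5 comparisons, and under the alternatives only Myo7b under DSS in WT did, with no filter (adjusted p 0.0375, range 0.0375 to 0.554). Ush1c (ENSMUSG00000030838.16, chr7:46195350-46238503, minus strand), the PDZ scaffold harmonin, stood at 253, 216 and 219 CPM in untreated WT and 214, 195 and 208 under DSS. Its KO samples had 198, 202 and 209 CPM untreated and 220.5, 207 and 188 under DSS. The 3 untreated WT samples lay just above the 3 WT DSS samples, and the KO groups overlapped. Its log2 fold change with DSS was -0.16 in WT (95% confidence interval -0.37 to 0.06) and 0.01 in KO (-0.20 to 0.23).

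Anks4b (ENSMUSG00000030909.5, chr7:120173858-120185586, plus strand), the ankyrin repeat scaffold, was at 65.9, 53.2 and 49.3 CPM in untreated WT and 48.4, 49.5 and 33.4 in WT under DSS. KO samples were at 46.6, 46.3 and 41.9 CPM untreated and 47.4, 43.4 and 41.0 under DSS. Its WT DSS values spread more widely than its KO values, through replicate 3. The log2 fold change in WT was -0.36 (95% confidence interval -0.72 to 0.01, adjusted p 0.301 by edgeR).

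Myo7b (ENSMUSG00000024388.10, chr18:31959234-32036961, minus strand), the motor that carries the complex to the tips, stood at 153, 166 and 197 CPM in untreated WT and 127, 92.0 and 156 in WT under DSS. In KO it stood at 169, 136 and 139 CPM untreated and 144, 121 and 92.6 under DSS. The groups overlapped in each genotype, and the 3 WT DSS samples spread over most of the gene's range. Its log2 fold change was -0.46 in WT (95% confidence interval -0.87 to -0.06) and -0.31 in KO (-0.72 to 0.10), intervals that include falls as large as that of Cdhr5 in WT.

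The 2 actin bundlers differed in their values. Espn (ENSMUSG00000028943.16, chr4:152120331-152152371, minus strand), espin, stood at 38.5, 42.3 and 31.7 CPM in untreated WT and 14.0, 17.1 and 15.8 CPM in WT under DSS. In KO it was at 21.9, 22.1 and 25.7 CPM untreated and 18.4, 12.2 and 17.5 CPM under DSS. All 9 samples outside untreated WT lay below all 3 untreated WT samples. The fall in WT was 2.40-fold (log2 fold change -1.26 with an SE of 0.20, adjusted p 0.0011 by edgeR), the largest among the 9 members tested for DSS. In KO the groups were apart but the change did not pass (log2 fold change -0.54 with an SE of 0.20, adjusted p 0.183 by edgeR). The difference between untreated KO and WT was -0.69 on the log2 scale and did not pass (SE 0.20, adjusted p by edgeR 0.0712), except by DESeq2 (0.0246) and without untreated WT replicate 3 (0.0373, range 0.0246 to 0.227).

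Vil1 (ENSMUSG00000026175.11, chr1:74409376-74435559, plus strand), villin, stood at 1037, 958 and 684 CPM in untreated WT and 749.7, 776 and 669 CPM in WT under DSS. Its KO levels were 604, 719.8 and 683 CPM untreated and 489.7, 482 and 531 CPM under DSS. The KO DSS samples were the lowest of all, and replicate 3 of untreated WT lay among the WT DSS samples. The log2 fold change with DSS did not pass in WT (-0.29, SE 0.13, adjusted p by edgeR 0.273), where it passed without that replicate (p 0.00885, range 0.00885 to 0.603), or in KO (-0.42, adjusted p by edgeR 0.106).

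Under DSS, Vil1 was lower in KO than in WT (log2 fold change -0.55 with an SE of 0.13, adjusted p 0.0386 by edgeR), 1.46-fold, with the groups apart. This call was lost in 8 of 18 alternatives (adjusted p 0.000102 to 0.143): with the replicate number as a block (0.0602), without any 1 of the WT DSS samples (0.141, 0.136 and 0.0655 for replicates 1, 2 and 3) or KO DSS samples (0.118, 0.143 and 0.0843), and without untreated KO replicate 3 (0.06). Of the 9 members other than Tmigd1, Vil1 was the only one called in this comparison by edgeR.

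The 2 proteins that link the core to the membrane also differed in their values. Ezr (ENSMUSG00000052397.8, chr17:6738041-6782784, minus strand), ezrin, stood at 1019, 1021 and 743 CPM in untreated WT and 703, 685 and 598 CPM in WT under DSS. In KO it was at 721, 832 and 756 CPM untreated and 549.8, 566 and 627 CPM under DSS. The groups were apart in both genotypes, though untreated WT replicate 3 came close to the DSS samples. The fall in WT passed (log2 fold change -0.49 with an SE of 0.12, adjusted p 0.0257 by edgeR), and the change in KO did not (log2 fold change -0.41 with an SE of 0.12, adjusted p 0.084 by edgeR). The WT call was lost without untreated WT replicate 1 (adjusted p 0.0907) or 2 (0.11) and without WT DSS replicate 1 (0.0579), 2 (0.0671) or 3 (0.127), in a range of 0.000466 to 0.127.

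Myo1a (ENSMUSG00000025401.8, chr10:127705170-127720940, plus strand), the membrane-linking myosin, stood at 978, 929 and 821 CPM in untreated WT and 908, 931 and 870.2 CPM in WT under DSS. Its KO samples were at 845, 892 and 775 CPM untreated and 771, 821 and 799 CPM under DSS. The untreated and DSS samples overlapped in both genotypes. Its log2 fold change was -0.01 in WT (95% confidence interval -0.20 to 0.18) and -0.07 in KO (-0.26 to 0.12).

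Counted over the 9 members other than Tmigd1, 4 were lower under DSS in WT (Espn, Cdhr2, Cdhr5 and Ezr) and 5 did not pass. These 9 were chosen with earlier results of these data known. Over all 12522 genes tested, 6.3% were called, 3.5% lower and 2.8% higher, which is 438 and 351 genes, or 356 and 526 with library totals in place of TMM. All 9 values were below 0, with a median log2 fold change of -0.46 against 0.0063 over all genes. In 5 of the 9, the 4 called and Ush1c, every DSS sample lay below every untreated one, against 9.96% of all genes, and 10.7% of genes had every DSS sample above. In KO none of the 9 passed by edgeR, where 3.92% of all genes were called, 2.04% lower and 1.88% higher. At an unadjusted p under 0.05, 4 of the 9 were past it. The share of all genes at that level was not counted, here or below, so such counts cannot be judged against it. DESeq2 called 2 of the 9, where it called 779 of 12817 genes. The KO median was -0.31 against 0.015 over all genes, with 8 values below 0. The KO groups were apart and lower for 4 members, Cdhr2, Espn, Vil1 and Ezr, against 12.3% of genes lower and 12% higher. In KO, 3 members passed with library totals, 3 with no filter and 3 without untreated WT replicate 3, and 1 without untreated WT replicate 1. All-gene calls in these fits were 547 of 12522, 776 of 23136, 710 of 12967 and 566 of 12958 in that order.

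**Figure D2:**
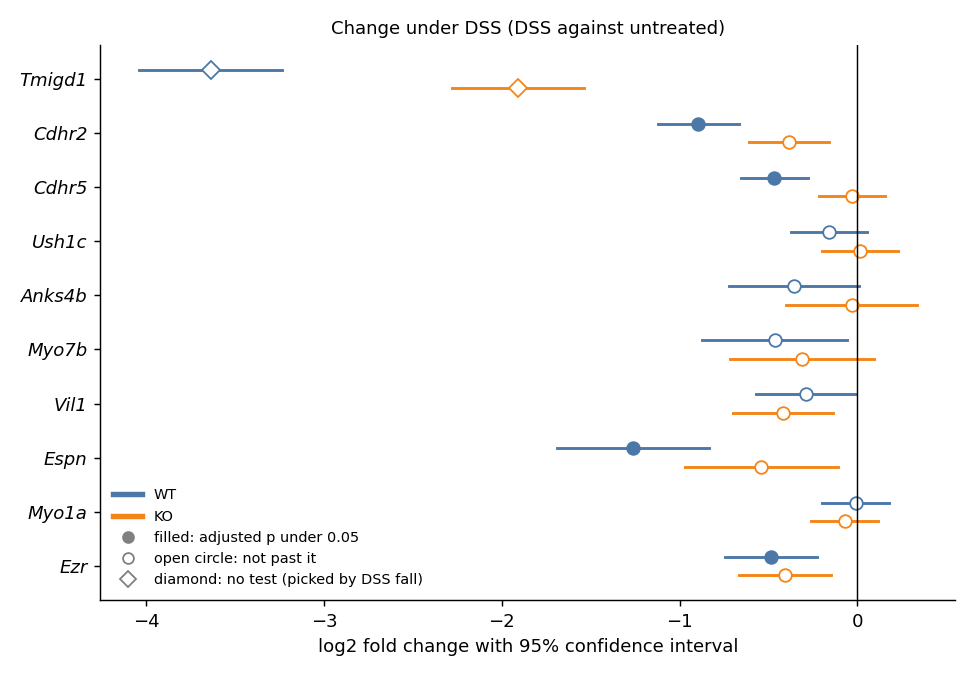
Log2 fold change with DSS for each of the 10 genes in WT and in KO, with 95% confidence intervals from the edgeR fit, filled points being past the threshold of adjusted p 0.05. Tmigd1 was chosen for its fall and was not tested, and its intervals take no account of that choice. Espn, Cdhr2, Cdhr5 and Ezr are filled in WT and no point is filled in KO.

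The difference between the genotypes in the DSS change was tested for the 9 members, and none passed by edgeR, where 1.7% of all genes did, 1.17% higher and 0.527% lower (147 and 66 genes, or 121 and 110 with library totals). Of the 9, 3 had an unadjusted p under 0.05, and DESeq2 called 1, Cdhr5, where it called 354 of 12369 genes. The difference, KO minus WT, was 0.51 for Cdhr2 (95% confidence interval 0.19 to 0.83, adjusted p by edgeR 0.137), 0.43 for Cdhr5 (0.17 to 0.70, p 0.121) and 0.72 for Espn (0.12 to 1.33, p 0.343). It was -0.13 for Vil1 (-0.53 to 0.27) and 0.08 for Ezr (-0.29 to 0.45). Without untreated WT replicate 3, the differences of Cdhr2 (0.61, adjusted p by edgeR 0.0171, range over the alternatives 0.0171 to 0.355) and Cdhr5 (0.52, p 0.00431, range 0.00431 to 0.29) passed. In that fit 350 of 12967 genes passed.

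Between untreated genotypes, 1 of the 9 members other than Tmigd1 was lower in KO (Cdhr2), where 3.48% of all genes were called, 1.76% lower and 1.72% higher (221 and 215 genes, or 157 and 352 with library totals). All 9 values were below 0, with a median of -0.27 against -0.0015 over all genes. In 4 of the 9 (Cdhr2, Espn, Ush1c and Anks4b) the KO samples lay entirely below the WT samples, against 9.52% of genes lower and 9.81% higher. Replicate 3 of untreated WT held the lowest Vil1, Ezr, Cdhr2 and Cdhr5 level of its group. Without it 5 of the 9 were lower in KO, Vil1 (adjusted p 0.00292), Espn (0.0373), Cdhr5 (0.0228) and Ezr (0.0219) being added. Calls over all genes also rose in that fit, to 725 of 12967, 415 lower and 310 higher, against 436 in the main fit. Without untreated WT replicate 2, or untreated KO replicate 1 or 3, the count was 0, where 261, 226 and 212 genes were called in that order. Under DSS 1 of the 9 was lower in KO, Vil1, where 3.11% of all genes were called, 1.77% higher and 1.34% lower. Under DSS the KO samples were entirely above WT for 1 of the 9, Cdhr5, and entirely below for 2, Vil1 and Myo1a, against 11.7% of genes higher and 10.6% lower. The count under DSS was 2 without untreated WT replicate 3, through Cdhr5, where 566 of 12967 genes were called, 323 higher and 243 lower. Of the 8 surface colonocyte markers, 2 were lower and 1 higher in untreated KO, and under DSS 4 were higher in KO and none lower, and their part in the members' values was not tested.

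**Figure D3:**
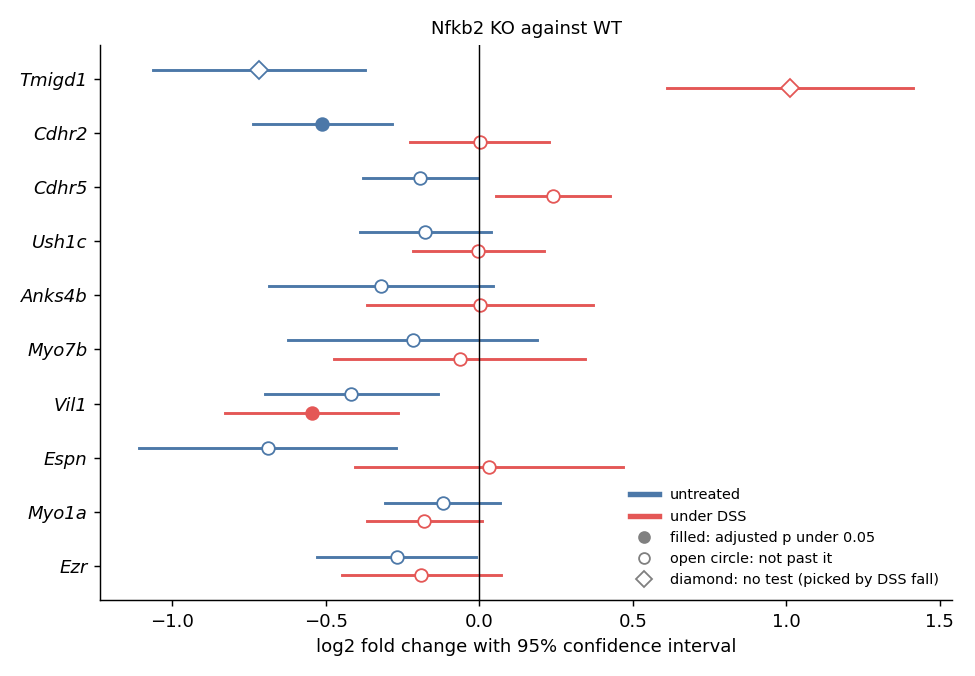
Log2 fold change of KO against WT for each of the 10 genes, untreated and under DSS, with 95% confidence intervals from the edgeR fit, filled points being past the threshold of adjusted p 0.05. Tmigd1 was chosen by its values in these samples and not tested, and its intervals take no account of that choice. It lies below 0 untreated (-0.72) and above 0 under DSS (1.01), and Vil1 is filled under DSS at -0.55.

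Ratios of members that act together were taken within each library, per exon base. The pairs were chosen after the values were seen and carry no test. Cdhr5 to Cdhr2 was 2.21, 2.38 and 2.34 in untreated WT and 2.99, 3.22 and 3.13 in WT under DSS. In KO it was 3.07, 2.74 and 2.85 untreated and 4.04, 3.29 and 3.76 under DSS. The cadherin ratio was thus higher in every DSS sample than in every untreated sample of the same genotype. Espn to Vil1 was 0.0159, 0.0190 and 0.0199 in untreated WT and 0.00800, 0.00944 and 0.0101 in WT under DSS. In KO it was 0.0156, 0.0132 and 0.0161 untreated and 0.0161, 0.0108 and 0.0141 under DSS. This bundler ratio separated the WT groups and overlapped between the KO groups. Myo1a to Ezr had a mean of 0.878 ± 0.0898 (SD, n = 3) in untreated WT and 1.21 ± 0.0735 under DSS, and of 0.966 ± 0.0669 and 1.22 ± 0.0815 in KO, apart in both genotypes.

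**Figure D4:**
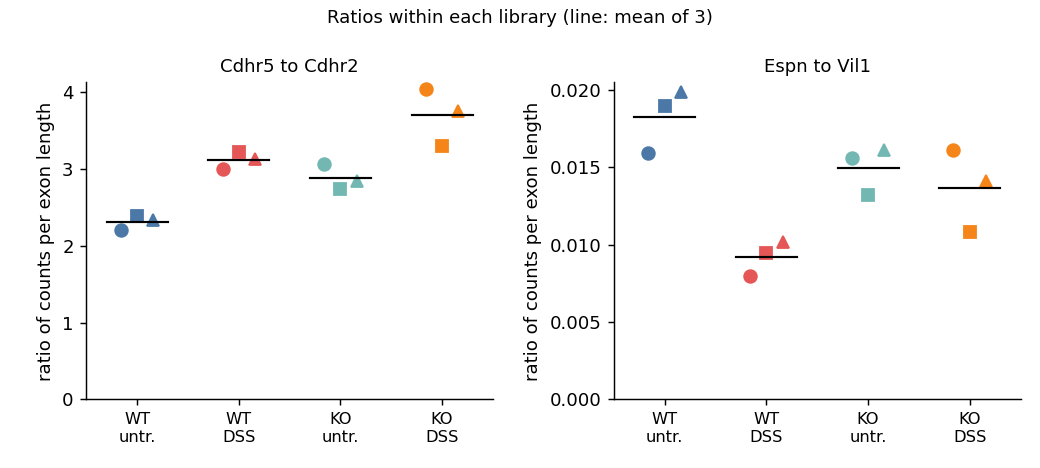
Ratio of 2 genes within each library, in counts per exon base on axes that start at 0, for Cdhr5 to Cdhr2 and Espn to Vil1, with the mean of 3 samples as a line. The cadherin ratio is higher under DSS in both genotypes, and the Espn to Vil1 mean is 0.0183 in untreated WT and 0.00919 in WT under DSS.

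Among 27 other structural brush border genes, 26 of them tested, 8 were lower and 1 higher under DSS in WT, and 5 were lower and none higher in KO. Over all genes, 3.5% were lower and 2.8% higher in WT, and 2.04% and 1.88% in KO. The median log2 fold change was -0.26 in WT and -0.24 in KO, against 0.0063 and 0.015 over all genes. Stk10, a kinase of ezrin and its relatives, had a log2 fold change of -2.35 in WT (SE 0.21, adjusted p by edgeR 5.43e-06) and -1.11 in KO (p 0.00524). Krt20, the keratin of differentiated surface cells, fell in both genotypes, -1.33 in WT (adjusted p by edgeR 5.15e-06) and -1.34 in KO (p 2.09e-05); it is also on the surface colonocyte list. Plekhg6 fell in WT (-1.62, adjusted p by edgeR 0.00277). Slc9a3r1, the scaffold that binds ezrin, fell in both genotypes, -0.79 in WT (adjusted p by edgeR 0.00248) and -0.81 in KO (p 0.00429). Myo15b also fell in both, -0.38 in WT (adjusted p by edgeR 0.0284) and -0.48 in KO (p 0.0119). Its WT call was lost with library totals (0.0576), with the replicate number as a block (0.052) and without untreated WT replicate 1 or 2 or any 1 of the WT DSS libraries (range 0.00449 to 0.143), and its KO call without untreated KO replicate 2 (0.0538) or 3 (0.0546) or KO DSS replicate 1 (0.0589), range 0.000684 to 0.0589.

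The member of that list that rose was Msn, moesin, an ezrin relative that is abundant in leukocytes, from 2.5 ± 1.06 to 7.70 ± 1.17 CPM in WT (SD, n = 3; log2 fold change 1.61 with an SE of 0.37, adjusted p 0.0163 by edgeR). It was also higher in KO than in WT, untreated (2.17, adjusted p by edgeR 0.00367) and under DSS (1.72, p 0.00985). Its group order was that of the leukocyte marker sums given above, and of 12 such markers tested 5 were higher under DSS in WT and none lower. Against WT, 7 were higher in KO without treatment and 4 with DSS, again with none lower. Over all genes, the shares higher in these comparisons were 2.8%, 1.72% and 1.77% in that order. Their part in the Msn values was not tested. The rise in WT was lost without WT DSS replicate 1 (adjusted p 0.0568) or 2 (0.061), range 0.000548 to 0.061, and the difference under DSS without WT DSS replicate 1 (0.0501) or 3 (0.0594), range 2.04e-05 to 0.0594.

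Between untreated genotypes, 3 of the other brush border genes were lower and 1 higher in KO, against 1.76% and 1.72% of all genes. Ceacam1, a glycoprotein of the microvillus surface, was lower (log2 fold change -0.70, SE 0.08, adjusted p by edgeR 0.00017), as were Myo1d (-0.49, p 0.008) and Ceacam20 (-0.48, p 0.0295). The Myo1d call was lost without untreated KO replicate 3 (0.0539, range 3.92e-05 to 0.0539), and that of Ceacam20 without untreated WT replicate 1 or 2, WT DSS replicate 1 or any 1 of the untreated KO libraries (range 0.0024 to 0.137). Under DSS 2 were higher and 2 lower, against 1.77% and 1.34% of all genes. Besides Msn, Stk10 was higher in KO (1.11, adjusted p by edgeR 0.00935), and Myo1d (-0.43, p 0.0222) and Myo15b (-0.40, p 0.038) were lower. Without WT DSS replicate 1 none of the 4 passed (Stk10 0.0595, range 0.000488 to 0.0595), and without untreated WT replicate 3 there were 7 calls. All-gene calls in these fits were 160 of 12994 and 566 of 12967. Myo1d was also lost without WT DSS replicate 3 or KO DSS replicate 2 or 3 (range 0.000969 to 0.131), and Myo15b with the replicate number as a block (0.0654) and without WT DSS replicate 3 or any 1 of the 6 KO libraries (range 0.00887 to 0.179).

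Of 15 apical hydrolases listed, 10 were tested, and 3 were lower under DSS in WT and 2 in KO, against 3.5% and 2.04% of all genes. Alpi, intestinal alkaline phosphatase, went from 41.1 ± 4.65 to 4.86 ± 2.49 CPM in WT (SD, n = 3; log2 fold change -3.06 with an SE of 0.30, adjusted p 1.23e-05 by edgeR) and from 18.0 ± 2.04 to 8.0 ± 1.25 CPM in KO (log2 fold change -1.17 with an SE of 0.28, adjusted p 0.0317 by edgeR). The meprin subunits Mep1b and Mep1a fell in WT by log2 fold changes of -1.26 (adjusted p by edgeR 2.47e-05) and -1.17 (p 0.000119), and Mep1b in KO (-0.58, p 0.0221). The KO calls of Alpi and Mep1b were each lost when any 1 of the 6 KO libraries was left out (adjusted p ranges 0.00194 to 0.12 and 0.00202 to 0.0898). The median over the 10 tested was 0.080 in WT and -0.39 in KO, against 0.0063 and 0.015 over all genes, with 6 of the 10 above 0 in WT. Alpi was also lower in untreated KO than in untreated WT (-1.19, adjusted p by edgeR 0.0237), a call lost without untreated WT replicate 1 or 2 or any 1 of the untreated KO libraries (range 0.00065 to 0.103). Under DSS none of the 10 differed between genotypes by edgeR, 3 having an unadjusted p under 0.05. Lactase (Lct), a small intestinal enzyme, had 0 counts in all 12 libraries.

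Of 12 transcription factors known to act on brush border genes, 11 were tested, and 2 were higher and 1 lower under DSS in WT, and 1 higher and 1 lower in KO. Over all genes, 2.8% were higher and 3.5% lower in WT, and 1.88% and 2.04% in KO. Their median log2 fold change was 0.38 in both, against 0.0063 in WT and 0.015 in KO over all genes. In WT 5 of the 11 values were below 0 and 6 above, and in KO 2 were below and 9 above. Cdx2, the intestinal homeobox factor, was lower under DSS in WT (log2 fold change -1.52 with an SE of 0.14, adjusted p 9.21e-06 by edgeR) and in KO (-0.76, adjusted p by edgeR 0.00727). Elf3, an epithelial ETS factor, was higher in WT (0.38, adjusted p by edgeR 0.0279) and in KO (0.43, p 0.0204), and Smad4 was higher in WT (0.71, p 0.0443). Elf3 was lost in WT without any 1 of the 3 WT DSS libraries (range 0.000694 to 0.11) and in KO without any 1 of the 6 KO libraries (range 0.00128 to 0.107), and Smad4 in 10 of 18 alternatives, the block among them (range 0.0145 to 0.146). Hnf4a, a nuclear receptor of the enterocyte, had a log2 fold change of -0.06 in WT (95% confidence interval -0.24 to 0.13) and -0.21 in KO (-0.40 to -0.03). No factor of the list passed between genotypes by edgeR; 2 had an unadjusted p under 0.05 untreated and none under DSS.

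**Figure D5:**
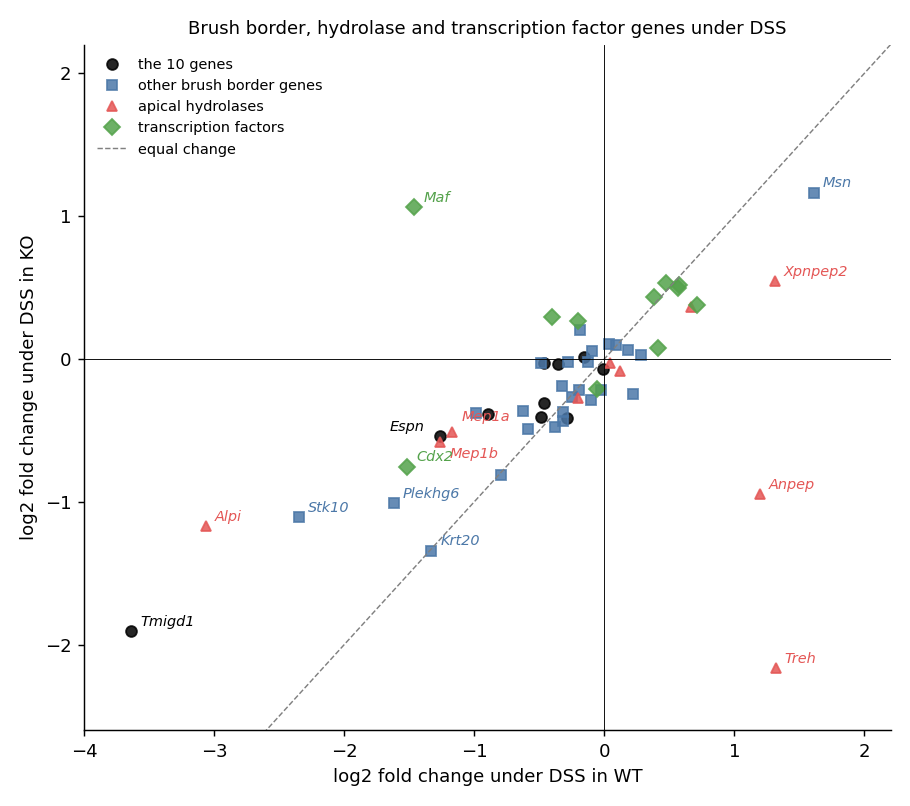
Log2 fold change with DSS in WT (horizontal) and KO (vertical) for the 10 genes, the other brush border genes, the apical hydrolases and the transcription factors, with the line of equal change. Tmigd1, Alpi and Stk10 lie farthest to the left; Maf, Treh, Anpep and Xpnpep2, which stand apart from the line, were not called.

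Over the 12 samples, the 5 genes whose centred log2 CPM was nearest to that of Tmigd1, among genes averaging log2 CPM 3 or more, were Slc9a3, Emp1, Dpep1, Alpi and Clca4a, with root mean square differences of 0.254, 0.418, 0.462, 0.477 and 0.480. Slc9a3, the apical sodium-proton exchanger NHE3, stood at 126 ± 8.43 CPM untreated and 10.5 ± 1.44 CPM under DSS in WT, and at 90.0 ± 6.63 and 16.5 ± 0.942 CPM in KO (SD, n = 3). Its 4 group means had the same order as those of Tmigd1, as did those of Emp1, Dpep1, Alpi and Clca4a. A like order follows largely from choosing genes by nearness to Tmigd1 over these samples. The nearest fellow member to Tmigd1 was Espn, at 1.03 and rank 87. No member had another member as its nearest gene: Cdhr2 was nearest to Papss2 (0.0756), Cdhr5 to Acads, Vil1 to Itpk1, Espn to Pparg, Ezr to Gipc2, Myo1a to Ppp1ca, Ush1c to Tmem9b, Anks4b to Sh3yl1 and Myo7b to Snx13. Members with little change are near many genes by this measure, which is a description over samples that share the same groups.

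Little of the members' exon sequence is shared with other genes. Vil1 shares 49 exon bases (1.38%) with Usp37 and Ush1c shares 120 (3.12%) with Gm9860 on the opposite strand, and counting by strand is not given in the sources used here. Of the 50-base words of each gene, Ush1c shares 1.75%, Anks4b 0.935% and Ezr 0.185% with other genes, and the other 7 genes share none.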

How the data were processed

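RNA of 12 samples of colonic epithelial cells was sequenced from libraries made by a SMART-seq2 protocol, which keeps neither strand nor molecular identifiers. The deposited files hold whole-number counts of reads per gene, with no scaling by the authors seen in the values. STAR 2.5.2b, featureCounts 1.5.0 and GRCm38 (mm10) are named per the submitters' processing notes, with no settings. Strandedness of counting and the annotation release are not given in the sources used here. Symbols and coordinates were taken from GENCODE M21 (GRCm38) by Ensembl ID without version: 46005 of 46517 IDs matched, 27555 with the version, and 512 did not.

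Counts were fitted over all 12 samples with edgeR 4.0.16 (R 4.3.3): filterByExpr kept 12522 genes with 99.8% of counts, TMM scaling, 1 coefficient per group, and the two-sided quasi-likelihood F test across all genes. A gene was called, or said to have passed, at a Benjamini-Hochberg adjusted p under 0.05, and an adjusted p is from this fit unless DESeq2 is named. The 5 comparisons were DSS in WT and in KO, the genotypes without and with DSS, and the interaction (KO response to DSS minus WT response). Log2 CPM used a prior count of 2. The common biological coefficient of variation was 0.227. Replicate pairs differed by 6.51 to 27.0 chi-square per degree of freedom, so none was the same library. Checked on counts simulated for DSS in WT over 12522 genes, the fit recovered 47% of genes changed by 1 on the log2 scale and 81% of those changed by 2, with 6 false calls.

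The titles number samples 1 to 3 in each group. Deviations of same-numbered samples from their group means correlated at 0.20, 0.11 and 0.13 in KO untreated and DSS samples. Differently numbered samples of the untreated genotypes correlated at up to 0.28, so such values do not settle whether the numbers mark pairs. The main fit took no pairs. A replicate block was fitted with the same coefficients for both genotypes, so it cannot show what pairs within a genotype would give. With it, none of the 9 members was called under DSS in KO. Alternatives were DESeq2 1.42.0, other scalings and filters, the block, and leaving out each library. The members and gene lists were chosen with earlier results of these data known. Counts between genotypes were planned over all 10 members, and those without Tmigd1 were added after the data were seen. The 10 members were all named, with up to 4 called genes of the largest absolute log2 fold change from each other list and comparison. Slc9a3r1 and Myo15b were named so under DSS in KO, and their WT values were added outside this rule. Ceacam1, which fell more than either in WT, was not given there. Lct, Hnf4a and the uncalled genes named beside the plot were chosen after their values were seen.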

Additional observations from a re-analysis of the deposited data

Results flagged for a closer look

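The DSS change differed between the genotypes for 3 genes of the brush border and hydrolase lists and 4 cell type markers by the edgeR interaction test, where 213 of 12522 genes passed. For Stk10 the change in KO minus that in WT was 1.24 on the log2 scale (SE 0.28, adjusted p by edgeR 0.0408), its fall being smaller in KO. This was lost with library totals, with no filter and in every fit that left out 1 library other than untreated WT replicate 3 (adjusted p 0.00635 to 0.12 over the alternatives). For Ceacam1 the difference was 0.61 (SE 0.11, adjusted p by edgeR 0.0114), from -0.99 in WT to -0.38 in KO, and it passed in all 18 alternatives (5.4e-05 to 0.043). For Alpi it was 1.89 (SE 0.40, adjusted p by edgeR 0.025), lost in 8 of the 12 fits that left out 1 library (0.000478 to 0.0773). Among the surface colonocyte markers the difference was 1.13 for Slc9a3 (SE 0.20, adjusted p by edgeR 0.00675) and 1.69 for Car1 (SE 0.19, p 0.000199), both falling less in KO. Among the goblet markers it was 0.84 for Muc2 (SE 0.14, adjusted p by edgeR 0.00456) and 2.34 for Clca1 (SE 0.22, p 5.55e-05). All 4 passed in all 18 alternatives, which were run for them after the data were seen.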

How the results depend on the processing

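Of the results given for single genes, 1374 of 1545 values under 18 alternatives kept their direction and their side of the threshold (for Tmigd1, which was not tested, moved by less than 1 SE). These include genes not called in the main fit. Among the rest, 108 lost a call, 24 gained a call and 38 changed sign. Of the counts of called genes, those planned with Tmigd1 included, 214 stayed within a factor of 1.5 under the alternatives and 92 did not. The 4 members lower under DSS in WT stayed so under every scaling, filter, tool and the replicate block. With library totals the median of all genes moved to 0.10 for DSS in WT, 0.11 for untreated KO against WT and -0.13 for the interaction. In KO under DSS, 3 members passed with library totals, 3 with no filter and 2 by DESeq2, against 0, and 8, 8 and 9 genes of the brush border list, against 5. Over all genes, no filter gave 776 calls there and DESeq2 779, 703 and 736 between untreated genotypes, 642 and 637 between genotypes under DSS, and 356 and 354 for the interaction. Of the 9 members other than Tmigd1, 2 were lower in untreated KO with no filter (Cdhr2 and Vil1) and 2 by DESeq2 (Cdhr2 and Espn), against 1. The count first planned held Tmigd1 too and is not given for these settings, since that gene was chosen by its values in these samples. In the interaction 1 list gene was called with library totals and 1 with no filter, and DESeq2 called 1 member. With the replicate number as a block, all-gene calls were 695, 409, 345, 290 and 186 for the 5 comparisons in the order of their definition. Between genotypes under DSS, 0 of the 9 members passed with the block. The block was shared by both genotypes, so calls kept or lost with it do not show what pairs within a genotype would give. Same-numbered deviations correlated at 0.014, 0.12 and 0.13 in WT and below 0 between genotypes. These values do not separate WT from KO as to pairs, and the main fit took none in either. In the WT as in the KO comparison every sample correlated best with its own number, and same-numbered untreated and DSS samples have consecutive library numbers in the labels, which do not say what such samples share.

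Leaving out 1 library gave 3 to 5 members called for DSS in WT and 0 to 3 in KO. It gave 0 to 5 of the 9 between untreated genotypes, 0 to 2 between genotypes under DSS and 0 to 2 for the interaction. For the brush border list the ranges were 7 to 12, 3 to 9, 2 to 8, 0 to 7 and 1 to 2, and for all genes 483 to 958, 235 to 710, 212 to 725, 160 to 566 and 152 to 350. The counts first planned, which held Tmigd1, ranged from 0 to 6 between untreated genotypes and 0 to 3 under DSS. These 2 ranges only record the plan. They are no test of Tmigd1, which was chosen by its values in these samples. The highest all-gene counts came without untreated WT replicate 3; the cause was not tested. Values near 0 that passed no test changed sign. With library totals these were Myo1a in WT (0.092), Ush1c in KO (-0.012), Ezr in the interaction (-0.052), and Cdhr2 (-0.010) and Anks4b (-0.0080) between genotypes under DSS. In that last comparison Cdhr2 was also below 0 with DESeq2 size factors (-0.0019), by DESeq2 (-0.00071) and with the block (-0.0025), Anks4b with size factors (-0.0011) and by DESeq2 (-0.0012), and Ush1c was above 0 with at least 10 counts in every sample (0.0056). Leaving out 1 library moved Myo1a in WT from -0.080 to 0.039, and in KO Ush1c from -0.043 to 0.071 and Anks4b from -0.092 to 0.012. Between genotypes under DSS it moved Espn from -0.076 to 0.19, Cdhr2 from -0.096 to 0.052, Myo7b from -0.24 to 0.13, Ush1c from -0.058 to 0.056 and Anks4b from -0.16 to 0.10. In the interaction it moved Vil1 from -0.25 to 0.028, Myo7b from -0.029 to 0.34 and Myo1a from -0.12 to 0.0057. Depth limits the low genes most: the 6.74 CPM of Tmigd1 in WT under DSS rest on 38 to 51 counts a library.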
